A study of Mus musculus with 14 samples.

Results

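*Sirpa* and *Cd47* encode the receptor and the ligand of a checkpoint on phagocytes, and the other SIRP genes described here are related to *Sirpa* by sequence. The 7 genes described here were *Sirpa*, *Sirpb1a*, *Sirpb1b*, *Sirpb1c*, *Gm5150*, *Gm9733* and *Cd47*, of 49315 genes in the spleen count table, and they were taken by gene symbol. The set was chosen by the L2-fKO against wild-type difference of *Gm5150*, a gene that resembles the SIRPβ genes and was higher without ZFP36L2 in both spleen and ovary, so the values of *Gm5150* are given as a description with no test. All 7 genes passed the filter on low counts in the spleen. In the ovary table of 18603 genes, 3 of them had a row (*Gm5150*, *Sirpa* and *Cd47*), and the other 4 were not analysed there.

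Poly(A) RNA had been sequenced for 8 spleens, with 4 animals per genotype, and for 6 ovaries, with 3 per genotype. The L2-fKO animals (Zfp36l2-/-;CMV-Cre, called L2-cKO in the labels) lacked the loxP-flanked part of both *Zfp36l2* alleles, and the controls were littermates with both intact copies and the same Tg.CMV-Cre, a Cre driven in nearly all cells, so the loss was not restricted to one cell type. The labels give no age. The study describes the spleens as those of age-matched pairs of pups in the first days after birth and the ovaries as those of age-matched animals, and its knockouts die as pups. The wild-type spleens came from 2 females and 2 males and the L2-fKO spleens from 1 female and 3 males, and all ovaries were female. The labels call the spleen source "Spleen Organoid", and 1 knockout animal gave both L2-fKO spleen 3 and L2-fKO ovary 1.

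SIRPα, the product of *Sirpa*, is an inhibitory receptor of macrophages, dendritic cells and other myeloid cells. When it binds CD47 on another cell, its cytoplasmic tail recruits the phosphatases encoded by *Ptpn6* and *Ptpn11*, and engulfment of that cell is restrained; red cells depend on this signal in the spleen. The SIRPβ proteins have similar extracellular domains but short tails, and they activate the cell through the adaptor DAP12, the product of *Tyrobp*, and the kinase SYK. ZFP36L2 binds AU-rich elements in the 3′UTRs of mRNAs and promotes their decay, and the 7-base element UAUUUAU is the form that it binds.

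In the GRCm38 annotation (GENCODE M21), 5 of the SIRP genes form one cluster on chromosome 3, all on the minus strand. The cluster runs from *Gm9733* (chr3:15296551-15332302) through *Sirpb1a* (chr3:15371653-15426520), *Sirpb1b* (chr3:15495751-15575065) and *Sirpb1c* (chr3:15795145-15848528) to *Gm5150* (chr3:15946870-16006437). *Sirpa* lies alone at chr2:129592835-129632228 and *Cd47* at chr16:49800533-49915010, both on the plus strand. Over the aligned coding sequence, *Sirpb1a*, *Sirpb1b* and *Sirpb1c* were 97.4% to 98.3% identical to each other. *Gm5150* was 79.0% to 79.6% identical to these 3 genes, 77.3% to *Gm9733* and 73.2% to *Sirpa*. Of all 50-base stretches in their transcripts, 40.1% of those of *Sirpb1a*, 57.7% of *Sirpb1b* and 46.1% of *Sirpb1c* also occurred in another member, and none of those of *Gm5150*, *Gm9733*, *Sirpa* or *Cd47* did. Counting of unique reads can therefore leave out or misplace reads of the 3 *Sirpb1* genes, and their single values are uncertain, while *Gm5150* and *Gm9733* could be told apart from the rest.

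The AU-rich elements in the 3′UTRs are shown first, since ZFP36L2 acts through such elements; the pentamer AUUUA alone is not the form that it binds. Among the 7 genes, *Cd47* was the one whose longest annotated 3′UTR (4133 bases) held UAUUUAU, at 1 place, and 8 AUUUA pentamers counting the one inside it. *Gm5150* had a 3′UTR of 197 bases with neither element. *Sirpa* (2044 bases), *Sirpb1a* and *Sirpb1b* (208 bases each) held 1 AUUUA each and *Sirpb1c* (1235 bases) held 3, and none of these 4 held UAUUUAU. The annotated 3′UTR of *Gm9733* was 1 base long. Of 21193 genes with an annotated 3′UTR, 65.6% held AUUUA and 27.4% held UAUUUAU. In the sites below, in the 3′UTRs on the mRNA strand, capitals mark the element, and the *Sirpb1a* and *Sirpb1b* sites read the same.
*Cd47* site, chr16:49913328-49913356, plus strand: uauucaauuuuUAUUUAUugucugcccuc
*Sirpa* site, chr2:129630871-129630899, plus strand: uuagaaaauuugAUUUAugcuguuuaguu
*Sirpb1a* site, chr3:15371657-15371685, minus strand: auuauuaaaagaAUUUAaggauguacaug
*Sirpb1b* site, chr3:15495755-15495783, minus strand: auuauuaaaagaAUUUAaggauguacaug

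The promoters of *Gm5150* and the 3 *Sirpb1* genes were also alike; *Gm9733* had no window and was not compared. RefSeq (GRCm38.p6) promoter windows, from 250 bases before to 50 after the gene start, were matched for 5 of the 7 genes. Over the best-aligned stretch, of 194 to 287 bases, *Gm5150* was 86.6% to 87.8% identical to the 3 *Sirpb1* windows. The *Sirpb1* windows were 95.6% to 98.1% identical to each other, over 207 to 259 aligned bases. Bases outside the aligned stretch were not counted. Each of these 4 windows held AGGAAGT, the core bound by ETS factors such as PU.1, read as ACTTCCT on the gene's own strand. Relative to the gene start it began at -68 in *Gm5150*, -56 in *Sirpb1a* and -4 in *Sirpb1c*. In *Sirpb1b* it began at 38, after the start. Of 32851 windows, 9.35% held it on either strand. The 4 windows resemble each other, so they are not separate cases beside that share. The stretches around it are given 5′ to 3′ on the gene's strand with this core in capitals; they show how *Gm5150* differs from the *Sirpb1* copies around a shared core.
*Gm5150*, chr3:16006383-16006411, minus strand: taagttaaagcACTTCCTttttgtacata
*Sirpb1a*, chr3:15426466-15426494, minus strand: taagtcacaatACTTCCTttctctacatg
*Sirpb1b*, chr3:15575016-15575039, minus strand: caagtcacaatACTTCCTttctct
*Sirpb1c*, chr3:15848474-15848502, minus strand: caagtcacaatACTTCCTttctctacgtg

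The deletion was visible in all libraries. *Zfp36l2* had a normalized count (TMM-scaled in the spleen) of 5739 ± 1419 in wild-type against 339 ± 52.9 in L2-fKO spleens (SD, n = 4 each), and 4840 ± 83.9 against 926 ± 145 (SD, n = 3 each) in the ovaries, where values are the authors' normalized counts. Reads on genes numbered 39138010 to 45167464 per spleen library and 31052510 to 44270070 per ovary library. L2-fKO spleen 4 stood apart in several of the results below, which are therefore also given without it. Nothing in the labels says how the animals fall into litters, and the p-values measure the spread between these animals.

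In wild-type spleens, levels per kb of exon (normalized counts per kb) ordered the 7 genes from *Cd47* (4691, range 4109 to 5536) and *Sirpa* (1626, range 1501 to 1784) down to the cluster. *Gm5150* followed at 125 (range 79.5 to 156) and *Gm9733* at 104 (range 81.8 to 127), whose ranges overlapped. *Sirpb1b* (25.8), *Sirpb1a* (25.2) and *Sirpb1c* (19.4) were lowest, with ranges that overlapped between neighbours. *Cd47*, *Sirpa* and *Gm5150* did not overlap each other, nor did *Gm9733* and *Sirpb1b*. Counting of unique reads can lower the levels of the *Sirpb1* genes, which share sequence. The level of *Gm9733* per kb rests on an annotation of 618 exon bases with a 3′UTR of 1 base. The order of these genes is therefore uncertain. In wild-type ovaries the order was *Sirpa* (374 per kb, range 359 to 388), *Cd47* (237, range 210 to 263) and *Gm5150* (8.04, range 5.51 to 10.6), without overlap. The spleen and ovary values were scaled separately, so levels were ordered within each tissue.

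Within the cluster, *Gm5150* and *Sirpb1a* were more abundant in L2-fKO spleens and *Gm9733* was less abundant. To be called, a gene needed a p below 0.05 after Benjamini-Hochberg adjustment over all 16911 genes tested (edgeR's quasi-likelihood test) and a log2 fold change beyond 1 in either direction. By both limits 2.9% of all genes tested were called up and 3.11% down, and by the p alone 6.89% were up and 6.51% down. Of the 6 genes other than *Gm5150*, *Sirpb1a* was called up and *Gm9733* down, and *Sirpa*, *Sirpb1b*, *Sirpb1c* and *Cd47* were not called.

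*Gm5150*, whose product is a SIRPβ-like receptor by its annotation and sequence, had normalized counts of 175, 189, 96.4 and 145 in wild-type spleens 1 to 4 and 357, 247, 272 and 457 in L2-fKO spleens 1 to 4. All L2-fKO values lay above all wild-type values, the lowest wild-type value being in spleen 3 and the highest L2-fKO value in spleen 4. The mean was 151 ± 41.0 in wild-type and 333 ± 95.1 in L2-fKO libraries (SD, n = 4 each), a log2 fold change of 1.14 (SE 0.26). This is just inside the fold limit by which the gene was chosen, and it was just outside that limit when L2-fKO spleen 4 (0.95) or wild-type spleen 3 (0.97) was left out. These rest on 97 to 536 reads per library.

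*Sirpb1a*, one of the 3 near-identical DAP12-coupled receptors, had normalized counts of 60.4, 55.6, 71.6 and 43.5 in wild-type spleens 1 to 4 and 112, 77.5, 155 and 223 in L2-fKO spleens 1 to 4. The groups did not overlap. It rose by a log2 fold change of 1.30 (SE 0.32, edgeR adjusted p = 0.0278; exact two-sided permutation p = 0.029, the smallest that 4 against 4 allows). Every gene whose groups do not overlap gets this permutation p, so it restates the separation. The call was lost without wild-type spleen 1, 2 or 4 (adjusted p = 0.0533, 0.0821 and 0.0923), without L2-fKO spleen 3 (0.0563), and when L2-fKO spleen 4 was left out, which gave a log2 fold change of 0.99. With 43 to 261 reads per library and copies that share sequence, its value is among the less certain ones.

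*Sirpb1c* had 86.8, 68.7, 82.5 and 47.5 in wild-type spleens 1 to 4 and 122, 94.2, 127 and 253 in L2-fKO spleens 1 to 4. These groups did not overlap either, and L2-fKO spleen 4 was far above the rest. The log2 fold change of 1.07 (SE 0.33) did not pass (edgeR adjusted p = 0.0612), and it was 0.68 without L2-fKO spleen 4. DESeq2 gave an adjusted p of 0.0123, and edgeR with no filter on low counts 0.0234, so that the gene lay close to the limit.

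*Sirpb1b* had 86.8, 68.7, 90.4 and 50.5 in wild-type and 77.2, 68.7, 90.2 and 123 in L2-fKO spleens, in the same order, and the ranges of the genotypes overlapped. It had a log2 fold change of 0.28 (SE 0.26, edgeR adjusted p = 0.518). The sum of the 3 *Sirpb1* genes, in which reads placed on the wrong copy matter less, was 203 ± 46.8 in wild-type and 381 ± 155 in L2-fKO libraries (SD, n = 4 each), with ranges of 141 to 244 and 240 to 599 that overlapped slightly.

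*Gm9733*, at the other end of the cluster, moved the opposite way. Its normalized counts were 69.8, 57.6, 78.5 and 50.5 in wild-type spleens 1 to 4 and 10.4, 23.3, 4.35 and 16.2 in L2-fKO spleens 1 to 4, with every L2-fKO library far under the lowest wild-type one. On the log2 scale it fell by 2.23 (SE 0.40, edgeR adjusted p = 0.00691; exact two-sided permutation p = 0.029, set by the separation), to 21.2% of the wild-type mean. The call held under all 14 alternatives that tested it, with log2 fold changes of -2.60 to -1.70. Its share of the normalized counts of the 5 cluster genes was 13.1% to 18.7% in wild type and 0.67% to 4.56% in L2-fKO. The share of *Gm5150* was 23.0% to 43.0% in wild type and 41.9% to 52.6% in L2-fKO, which overlap.

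**Figure D1:**
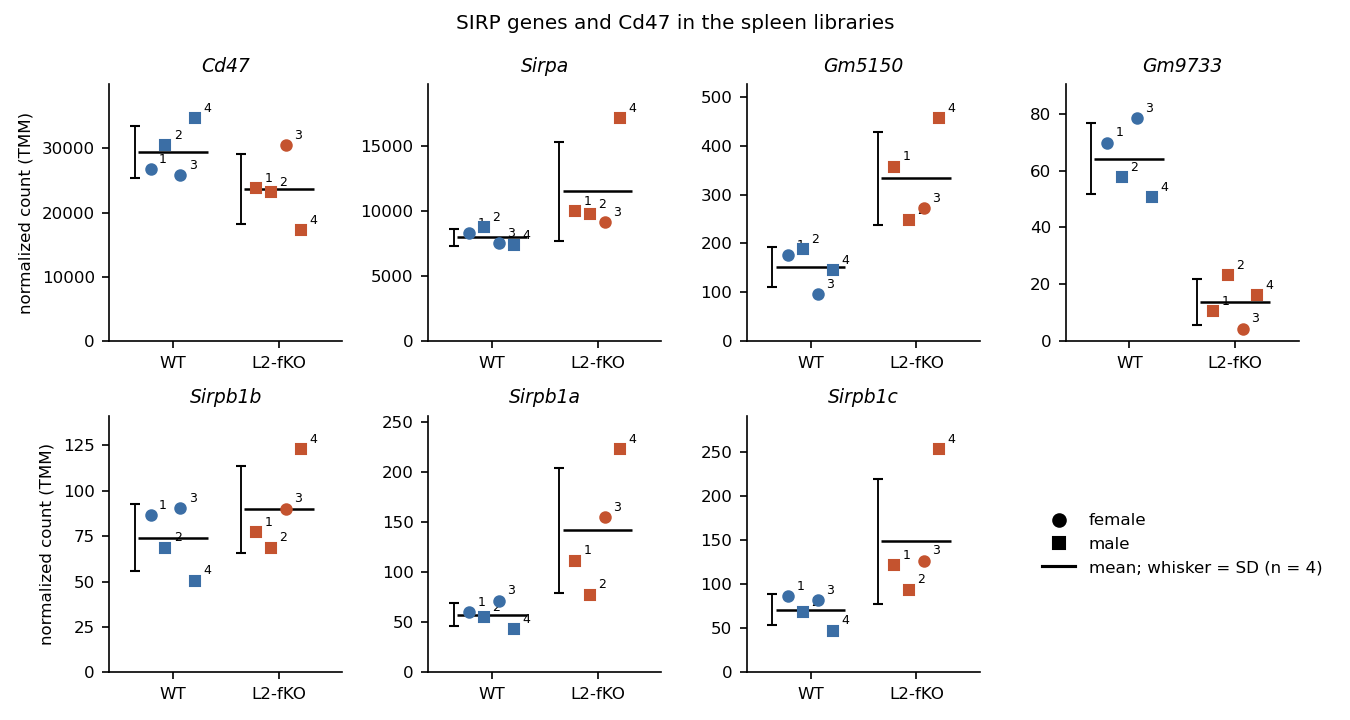
Normalized count (TMM-scaled, linear axis from 0) of each gene in each spleen library, wild type in blue and L2-fKO in red, numbered by replicate; lines are means and whiskers SD (n = 4). *Gm5150*, *Sirpa*, *Sirpb1a* and *Sirpb1c* have all red points above all blue ones, *Gm9733* has them all below, and L2-fKO spleen 4 is the highest red point in 5 of the 7 genes.

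The opposite changes lay side by side on the chromosome. Of 16 genes annotated within 1 Mb of *Gm5150*, itself included, 6 were protein-coding, and these 6 were the ones tested in the spleen. *Ythdf3*, which encodes a reader of methylated adenosine in mRNA and lies on the far side of *Gm5150*, had a log2 fold change of -0.19 (SE 0.10, edgeR adjusted p = 0.236) in the spleen and -0.02 (SE 0.09, limma adjusted p = 0.921) in the ovary. *Sirpb1b*, with the smallest fold change of the cluster, stood between *Sirpb1a* and *Sirpb1c*.

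**Figure D2:**
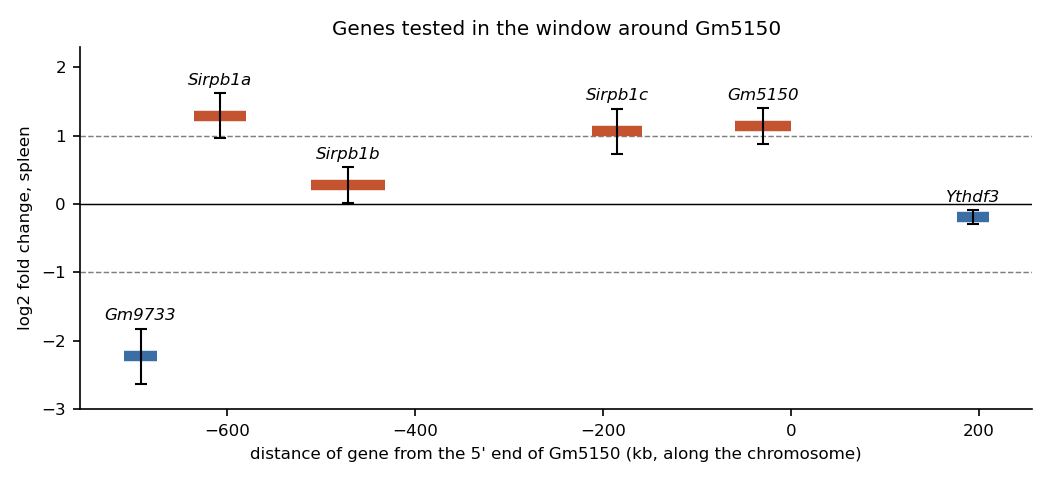
Spleen log2 fold change (L2-fKO over wild type, whiskers SE) of the 6 genes tested within 1 Mb of *Gm5150*, against distance in kb from the 5′ end of *Gm5150*; each bar spans its gene and dashed lines mark the fold limit. *Gm9733* is at -2.23 and *Ythdf3* near 0, and the 4 genes between them are at 0.28 to 1.30.

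*Sirpa*, the inhibitory receptor, had normalized counts of 8306, 8761, 7510 and 7370 in wild-type spleens 1 to 4 and 9985, 9783, 9132 and 17183 in L2-fKO spleens 1 to 4. All L2-fKO values were above all wild-type ones, 3 of them by little and L2-fKO spleen 4 by far. The log2 fold change was 0.53 (SE 0.20, edgeR adjusted p = 0.110), which did not pass over all genes, and it was 0.27 without L2-fKO spleen 4. The exact two-sided permutation p of 0.029 follows from the separation of the groups alone. Among genes tested, 9.61% had all L2-fKO spleens above all wild-type ones and 10.8% had all below.

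*Cd47*, the ligand, had normalized counts of 26728, 30510, 25786 and 34741 in wild-type spleens 1 to 4 and 23853, 23160, 30469 and 17212 in L2-fKO spleens 1 to 4. The groups overlapped through L2-fKO spleen 3, the one L2-fKO female, and L2-fKO spleen 4 was lowest. The log2 fold change was -0.31 (SE 0.18, edgeR adjusted p = 0.282), and -0.61 with male libraries alone (adjusted p = 0.0720). The count of *Sirpa* over that of *Cd47* was 0.212 to 0.311 in wild-type and 0.300 to 0.998 in L2-fKO spleens.

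In the ovaries *Gm5150* was again higher in L2-fKO, as its choice required, while *Sirpa* was slightly lower. The authors' normalized counts of *Gm5150* were 9.73, 6.68 and 12.8 in wild-type ovaries 1 to 3 and 34.9, 44.2 and 37.6 in L2-fKO ovaries 1 to 3. The groups were far apart at this low level, which rested on 8 to 14 reads in wild-type and 33 to 43 reads in L2-fKO libraries. The mean was 9.75 ± 3.08 (SD, n = 3) against 38.9 ± 4.79 (SD, n = 3), and the log2 fold change on the log2(value + 1) scale was 1.92 (SE 0.33). With a pseudocount of 10 it was 1.31. In limma's test over 18504 ovary genes, 0.73% of genes were called up and 0.227% down, and 1.23% were up and 0.351% down by the adjusted p alone, which is the contrast that chose *Gm5150*.

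*Sirpa* had 1763, 1848 and 1905 in wild-type and 1693, 1630 and 1597 in L2-fKO ovaries, so that all L2-fKO values were below all wild-type ones. The log2 fold change was -0.16 (SE 0.07, limma adjusted p = 0.287; exact two-sided permutation p = 0.1, the smallest that 3 against 3 allows and set by the separation). Among ovary genes tested, 12% had all L2-fKO libraries below all wild-type ones and 13.2% had all above. *Cd47* had 1649, 1318 and 1501 in wild-type and 1812, 1402 and 1486 in L2-fKO ovaries, which overlapped (log2 fold change 0.07, SE 0.12, limma adjusted p = 0.813).

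**Figure D3:**
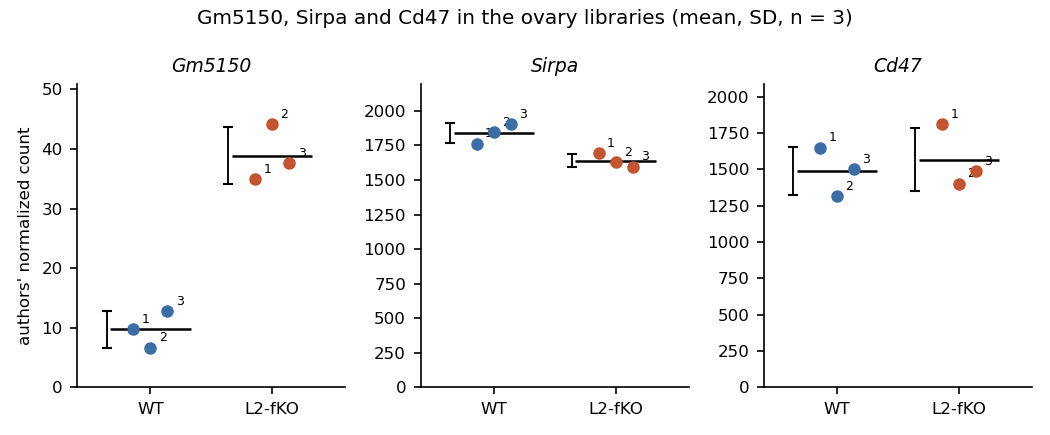
The authors' normalized count (linear axis from 0) of *Gm5150*, *Sirpa* and *Cd47* in each ovary library, wild type in blue and L2-fKO in red, numbered by replicate; lines are means and whiskers SD (n = 3). *Gm5150* is at 6.68 to 12.8 in wild type and 34.9 to 44.2 in L2-fKO, *Sirpa* is slightly lower in L2-fKO, and *Cd47* overlaps.

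Of 20 genes of the signalling partners of SIRPα and SIRPβ, none was called in the spleen; the median log2 fold change was -0.14, beside -0.02 over all genes tested. *Hcst*, which encodes the DAP10 adaptor, was the one gene with an adjusted p below 0.05 (log2 fold change -0.87, SE 0.20, edgeR adjusted p = 0.0207), short of the fold limit, and it was called down without L2-fKO spleen 4 (-1.01, edgeR adjusted p = 0.00848). Its edgeR adjusted p was 0.0736 and 0.0617 without L2-fKO spleen 1 or 2, and 0.0683 and 0.0589 without wild-type spleen 2 or 4. It stayed below 0.05 when any other spleen was left out. The summed level of the list was 1869 to 2760 CPM (counts scaled to a common library total) in wild type and 1519 to 2454 CPM in L2-fKO, which overlap; without L2-fKO spleen 4 the highest L2-fKO sum was 1803 CPM, and the mean was 0.771 times that of wild type. *Tyrobp* had a log2 fold change of -0.31 (SE 0.16), *Ptpn6* of -0.41 (SE 0.28), *Ptpn11* of -0.17 (SE 0.11) and *Syk* of -0.30 (SE 0.32), with edgeR adjusted p-values of 0.231 to 0.573. In the ovary none of the 20 was called or had an adjusted p below 0.05, with a median log2 fold change of 0.21 beside -0.004 over all genes; *Tyrobp* was at 0.56 (SE 0.19, limma adjusted p = 0.208).

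Of the other partners of CD47, the thrombospondins and integrins, 11 were tested in the spleen, 4 were called down, none was called up and 7 were not called. *Thbs1*, a secreted ligand of CD47, fell by 3.26 on the log2 scale (SE 0.17, edgeR adjusted p = 8.84e-06), from a normalized count of 10691 ± 956 to 1116 ± 254 (SD, n = 4 each). *Itgb3* and *Itga2b*, the chains of the platelet fibrinogen receptor, had log2 fold changes of -4.02 (SE 0.23) and -3.73 (SE 0.22), both called, and *Itgam*, the myeloid integrin CD11b, fell by 2.28 (SE 0.36, edgeR adjusted p = 0.00344). *Thbs2* and *Itgav* rose, short of the fold limit, by 0.92 (SE 0.16, edgeR adjusted p = 0.00569) and 0.73 (SE 0.18, edgeR adjusted p = 0.0251). None of these genes was called in the ovary, where *Thbs1* had a log2 fold change of -0.15 (SE 0.26, limma adjusted p = 0.800). All 12 megakaryocyte markers, a list that itself holds *Itga2b* and *Treml1*, were called down in the spleen, and their summed level was 612 to 1268 CPM in wild type and 39.0 to 43.7 CPM in L2-fKO. Fewer cells of a type and less RNA per cell cannot be told apart in whole-tissue RNA.

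Of 16 tested genes of the DAP12-coupled and related receptors, a list that holds the *Sirpb1* genes, 4 were called down and 1 up in the spleen. The 1 was *Sirpb1a*, and 6 were called down when L2-fKO spleen 4 was left out. *Treml1*, a related receptor of platelets that is not known to couple to DAP12, fell by 6.39 (SE 0.39) on the log2 scale. The myeloid receptors *Trem2*, *Trem3* and *Clec5a* fell too, with log2 fold changes of -2.09 (SE 0.35), -1.77 (SE 0.38) and -1.87 (SE 0.42). *Trem2*, with a normalized count of 51.0 ± 8.08 in wild type and 11.8 ± 5.54 in L2-fKO (SD, n = 4 each), was near the level of the *Sirpb1* genes. The median of the list was -0.20. In the ovary 4 genes of this list were tested and none was called. Their summed level there was 92.7 to 111 normalized counts in wild type and 145 to 182 in L2-fKO, without overlap.

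Of the inhibitory (ITIM) myeloid receptors, the class of *Sirpa*, 19 were tested in each tissue. In the spleen *Clec12a* fell by 1.41 (SE 0.20, edgeR adjusted p = 0.00217) on the log2 scale, while *Lair1*, a collagen receptor, rose by 0.92 (SE 0.20, edgeR adjusted p = 0.0149), short of the fold limit. In the ovary *Cd300lf*, a receptor for phosphatidylserine and other lipids, was called up, from a normalized count of 22.8 ± 1.59 to 75.1 ± 7.23 (SD, n = 3 each; log2 fold change 1.67, SE 0.22, limma adjusted p = 0.0180). Leaving out any ovary except L2-fKO ovary 2 took that adjusted p to between 0.0557 and 0.0967, with log2 fold changes of 1.61 to 1.72.

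Among genes that promote engulfment, 23 were tested in the spleen, 1 was called up and none down, with a median log2 fold change of 0.35. *Fcgr4*, an activating Fc receptor, rose by 1.39 (SE 0.34, edgeR adjusted p = 0.0256), with L2-fKO values of 402 to 1415 against 265 to 325 in wild type; its log2 fold change was 0.91 once L2-fKO spleen 4 was left out, and its adjusted p was 0.0516, 0.0652 and 0.0828 without wild-type spleen 1, 2 or 4. *Mertk*, a receptor for apoptotic cells, rose by 0.79 (SE 0.17, edgeR adjusted p = 0.0143), *Fcgr3* by 0.63 (SE 0.18, edgeR adjusted p = 0.0490) and *Calr*, an "eat me" signal, by 0.39 (SE 0.11, edgeR adjusted p = 0.0471), all short of the fold limit. In the ovary none of 24 was called.

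Cell type markers moved with several of these genes. Of 18 macrophage markers, 1 (*Cd5l*) was called up in the spleen, at a log2 fold change of 1.43 that was 0.76 without L2-fKO spleen 4 and a call that was kept only when L2-fKO spleen 2 or 3 was left out, and 17 had a log2 fold change above 0, and their summed level was 2042 to 3498 CPM in wild type and 3321 to 5840 CPM in L2-fKO, the highest being L2-fKO spleen 4. *Csf1r*, the receptor of macrophage colony-stimulating factor, had a log2 fold change of 0.83 (SE 0.27, edgeR adjusted p = 0.0722). The summed macrophage level was 1.39 times the wild-type mean, and 1.18 times without L2-fKO spleen 4. Among L2-fKO spleens, L2-fKO spleen 4 was also highest in the monocyte, dendritic, B cell, T cell and endothelial and stromal sums. The members were scaled to the macrophage sum alone. Per 1000 CPM of that sum, *Sirpa* was at 66.3 ± 12.7 CPM in wild type and 66.4 ± 2.01 CPM in L2-fKO, while *Gm5150* was at 1.21 ± 0.0773 and 1.95 ± 0.299 CPM (SD, n = 4 each), with ranges of 1.09 to 1.26 and 1.71 to 2.38. On the same scale *Sirpb1a* was at 0.367 to 0.810 in wild type and 0.536 to 1.08 in L2-fKO, and *Cd47* at 191 to 295 and 68.1 to 212, which overlap. The L2-fKO mean over the wild-type mean was 1.00 for *Sirpa*, 1.61 for *Gm5150*, 1.64 for *Sirpb1a*, 1.39 for *Sirpb1c*, 0.832 for *Sirpb1b*, 0.148 for *Gm9733* and 0.612 for *Cd47*. None of these genes is in the macrophage list. *Gm5150* was chosen by these same values, in the spleen and in the ovary, so its scaled levels describe its rise and do not test it. In the ovary the summed macrophage level was 14858 to 15274 normalized counts in wild type and 16594 to 20836 in L2-fKO, 1.26 times the wild-type mean, and *Gm5150* per 1000 of it was 0.450 to 0.841 in wild type and 1.80 to 2.26 in L2-fKO. Other marker sums were also higher in the L2-fKO ovaries without overlap. They were those of erythroid (9878 to 15160 against 15429 to 25053), B cell (428 to 503 against 530 to 761), T cell (300 to 488 against 556 to 589) and dendritic markers (9660 to 10040.5 against 10440 to 11240). Of the T cell markers *Cd4* was called up there (log2 fold change 2.12, SE 0.23, limma adjusted p = 0.00933), with an adjusted p of 0.0688 and 0.0621 without wild-type ovary 2 or 3.

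Neutrophil markers moved the way *Gm9733* did. Of 15 in the spleen, 14 were called down, with none at 0, and their summed level was 4268 to 6818 CPM in wild type and 288 to 1619 CPM in L2-fKO, 0.224 times the wild-type mean. Without wild-type spleen 2 or L2-fKO spleen 1, 7 and 8 of them were called down. L2-fKO spleen 3 had the lowest value of both *Gm9733* and this sum. Among L2-fKO spleens it was also lowest in the macrophage, monocyte, dendritic, megakaryocyte, B cell, T cell and endothelial and stromal sums. Its low value is therefore not particular to neutrophil markers. Of 12 monocyte markers, 5 were called down and 1 (*Fn1*) up, and the summed level was 849 to 1085 CPM in wild type and 828 to 1252 CPM in L2-fKO. Of 16 erythroid markers none was called, and the sum was 53272 to 91401 CPM in wild type and 45537 to 96061 CPM in L2-fKO; L2-fKO spleen 4 was lowest in this sum and in *Cd47*. The part of these cell types in the changes of the SIRP genes and *Cd47* was not tested. Of the remaining lists, dendritic markers had 1 of 16 called down (*Cd209a*, which passed the filter through the wild-type spleens alone and was not tested when any one of them was left out), endothelial and stromal markers 2 of 10 called up (*Pdgfra* and *Pdgfrb*), and B and T cell markers none of 10 and none of 9 in the spleen. The endothelial and stromal sum was 1172 to 1283 CPM in wild type and 1482 to 2107 CPM in L2-fKO, without overlap. Its L2-fKO mean was 1.34 times that of wild type, and 1.22 times without L2-fKO spleen 4. Markers of the ovary, a check of the tissue, summed to 13.7 to 29.5 CPM in the spleens, and in the ovaries to 199759 to 211574 normalized counts in wild type and 148072 to 205549 in L2-fKO, where none of 14 was called.

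**Figure D4:**
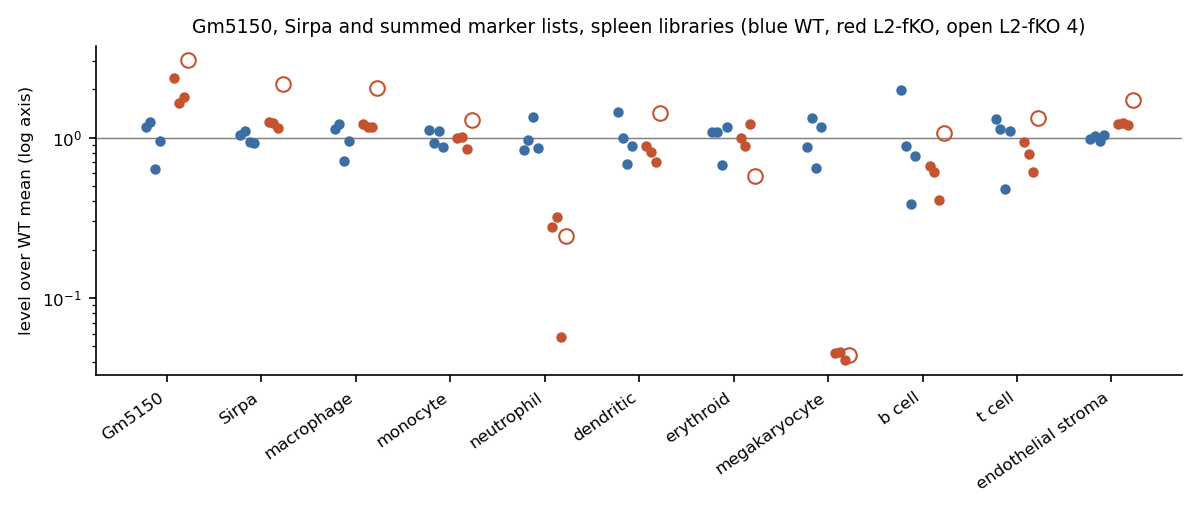
Level of *Gm5150* and *Sirpa*, and summed level of each marker list, in each spleen library divided by the wild-type mean (log axis), wild type in blue and L2-fKO in red, with L2-fKO spleen 4 as the open circle. The L2-fKO neutrophil sums lie below all wild-type ones, and the mean of the megakaryocyte sums is at 0.0440 times the wild-type mean. L2-fKO spleen 4 is highest in *Sirpa*, *Gm5150* and the macrophage, monocyte, T cell and endothelial and stromal sums.

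Genes whose levels varied most like these members within genotype were looked up over the 8 spleens, after the mean of each genotype was removed, among 12321 other genes with a mean count of at least 100. The highest Pearson correlations with *Gm5150* were those of *Amz1* (0.996), *Rrad* (0.994), *Pla2g15* (0.981), *Dnajb5* (0.981) and *Tspan17* (0.979). For *Sirpa* they were *Msr1*, the macrophage scavenger receptor (0.996), *Gzmb* (0.995), *Ptgs1* (0.995), *Rxra* (0.995) and *Colec12* (0.993). For *Cd47* they were *Gch1* (0.997), *Hist3h2ba* (0.995), *Cdkn2d* (0.994), *Tmem60* (0.993) and *Mob2* (0.992). Without L2-fKO spleen 4 the same pairs were at 0.972 to 0.997 for *Gm5150*, 0.936 to 0.959 for *Sirpa* and 0.989 to 0.995 for *Cd47*. These are the highest of many values over few libraries that share depth and cell makeup, and describe these libraries alone.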

How the data were processed

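The members and gene lists were chosen with earlier results of these data known. Per the labels and the study's methods, the authors used Trimmomatic 0.36 for trimming and STAR 2.5.2b for mapping to GRCm38, and counted unique exonic reads by strand with featureCounts of Subread 1.5.2, and the deposited spleen values are raw counts. For the ovary the authors deposited signal values, that is counts divided by 1 size factor per library; its mapping is not given in the sources used here. All of these values were whole reads after division by the library's step (100%, tolerance 0.001). The authors' tables also hold log2 fold changes, p-values and adjusted p-values of their DESeq2 comparison, which were not used.

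Spleen counts were tested with edgeR 4.0.16 (quasi-likelihood, TMM) on genes that reached 10 counts in 4 or more libraries. Ovary values were tested with limma 3.58.1 (trend) on log2(value + 1), for genes that reached a value of 10 in 3 or more libraries. DESeq2 1.42.0 was an alternative. R 4.3.3 was used. Of 200 genes given a log2 fold change of 2 in simulated counts, 193 (edgeR, spleen) and 192 (limma, ovary) were recovered, with 4 false calls each. The simulation gave every gene the same dispersion and held no outlying library, so it does not give the power in these data. Libraries of a group differed by more than counting error (between spleens, chi-square over its degrees of freedom was 7.86 to 236). Wild-type spleen 4 carries the number 3 in its label, shared with another library. Named genes were the 7 members, *Zfp36l2*, fixed partners, called genes of the 5 pathway lists, tested protein-coding neighbours and the 5 most alike genes; *Hcst*, *Cd4*, *Thbs2*, *Itgav*, *Lair1*, *Mertk*, *Fcgr3* and the markers named within the lists were chosen after their values were seen. Levels per macrophage sum and list sums without L2-fKO spleen 4 were also chosen after seeing the data.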

Additional observations from a re-analysis of the deposited data

Results flagged for a closer look

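In L2-fKO spleen 4, the *Sirpa* normalized count of 17183 lay far above the other 3 L2-fKO spleens, as did the summed levels of the macrophage list (5840 CPM), the inhibitory myeloid receptor list (1154 CPM) and the endothelial and stromal list (2107 CPM). In wild-type spleen 3 the summed erythroid level of 53272 CPM lay far below the other 3 wild-type spleens. These were 5 of 46 groups of 4 libraries examined, and chance alone flags about 1 in 20.

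*Sirpa* differed in direction between the tissues, with a log2 fold change of 0.53 in the spleen and -0.16 in the ovary. Every L2-fKO spleen was above the wild-type mean and every L2-fKO ovary below it. The difference between the tissues was not tested.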

How the results depend on the processing

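Of 115 values recomputed for the members other than *Gm5150*, 104 kept their direction and side of the limit. *Gm5150* stayed higher in L2-fKO in each alternative that could be fitted, at log2 fold changes of 0.95 to 1.26 in the spleen and 1.31 to 2.13 in the ovary. The alternatives reuse the values by which the gene was chosen, so they describe its rise and do not test it. In the spleen, 490 genes were called up and 526 down. Leaving out 1 library gave 331 to 574 up and 328 to 659 down, and the lowest counts of downregulated genes came without wild-type spleen 2 (340) or 4 (328). Genes of the pathway lists called up in the spleen, other than members, numbered 1, and were 0 with the replicate block, 3 with male libraries alone and 0 to 3 without 1 library. In the ovary, 135 genes were called up and 42 down. DESeq2 on recovered reads gave 286 and 121, the replicate block 81 down, and leaving out 1 library 26 to 115 up and 3 to 71 down. Pathway genes called up in the ovary went from 1 to 3 with DESeq2, 2 with the replicate block and 0 to 2 without 1 library. Marker genes called up went from 1 to 5 with DESeq2, 3 with the block, 2 with a value of at least 10 in all 6 libraries and 0 to 4 without 1 library; those called down went from 0 to 1 with DESeq2 or the block, and 0 to 1 without 1 library. *Cd47* in the ovary changed sign without wild-type ovary 2 (-0.015) or L2-fKO ovary 1 (-0.039), with a range of -0.039 to 0.15 (log2 fold change) over the libraries left out. *Gm5150* could not be fitted in the ovary with a value of at least 10 in all 6 libraries. The causes were not tested.

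Whether the replicate numbers pair the libraries was not settled, and they were not used as pairs, since not every pair passed 0.1: deviations of same-numbered libraries correlated at -0.14, 0.09, 0.18 and -0.29 in the spleen and 0.38, 0.21 and 0.07 in the ovary, where all were positive and the block gave 187 genes up. With the replicate block *Sirpb1a* had an adjusted p of 0.0735 (edgeR, log2 fold change 1.21) and with male libraries alone 0.0788 (1.48). Depth limits *Gm9733* and the *Sirpb1* genes in the spleen and *Gm5150* in the ovary, which rest on few reads.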
